A study of Mus musculus with 12 samples.

Results

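The solute carrier (SLC) transporters of mouse bone marrow derived macrophages (BMDMs) were followed over 6 times of exposure to interferon-beta (Ifn-β), and 145 of 290 measured Slc genes made up the set described here. Genes were chosen by their symbol, Slc followed by a family number, the letter a and a member number, on array features annotated with exactly 1 gene symbol, and were then selected on level: the mean log2 level over all 12 arrays had to reach 6. Where a gene had several features the highest was kept, which mattered for Slc8a1, whose other feature averaged 3.69. Another 11 features that carried several symbols, at least 1 of them an Slc gene, were not used. The level cut reads no difference between times, and 1 gene, Slc39a5, passed it with a mean under 6 at 0 h. Just inside the cut lay Slc29a2 at 6.01, Slc4a3 at 6.02, Slc39a5 at 6.02, Slc25a23 at 6.03 and Slc41a1 at 6.04, and just outside lay Slc12a2 at 5.998, Slc6a20a at 5.99, Slc25a47 at 5.98, Slc5a5 at 5.97, and Slc25a42 and Slc4a8 at 5.95. Of the 145 genes, 142 encode transporters in 13 substrate classes or of other or unclear substrate, and 3 (Slc9a3r1, Slc7a6os and Slc4a1ap) carry an Slc symbol but encode no transporter.

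SLC proteins are membrane transporters that move nutrients, ions, metals, vitamins, nucleosides and metabolites across the plasma membrane and the membranes of lysosomes, Golgi and mitochondria, mostly as facilitators, exchangers or carriers coupled to an ion gradient. In macrophages they set the supply of arginine, glutamine, glucose and iron, export lactate and iron, and carry peptides out of the endolysosome, where receptors for nucleic acids signal. Type I interferons act through a shared receptor, and many of the genes they induce carry the interferon-stimulated response element (ISRE).

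The cells came from the femurs of male Balb-C mice aged 8-9 weeks, were grown from marrow with Csf1, the growth factor of this lineage, and received 10 U/ml of recombinant mouse Ifn-β. In all, 2 arrays each were hybridised for cells collected before treatment (0 h) and for cells collected at 1, 2, 4, 8 and 24 h. The labels describe the 2 RNA samples of a time as biological replicates from separate wells; whether wells of 1 time shared an animal is not given in the sources used here, so p-values measure the spread between such wells. No untreated culture was collected at 1 to 24 h, so time in culture and Ifn-β cannot be told apart. In bulk RNA, fewer cells of a type and less RNA per cell cannot be told apart either.

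Levels are log2 values after robust multi-array averaging (RMA), and a difference of 1 is 2-fold. A ± after a change is the standard error of the fit, and after a level the SD of the 2 arrays. A gene was called at a time when limma's moderated test over all 23332 array features (transcript clusters) gave a Benjamini-Hochberg adjusted p below 0.05 and the change was at least 1.5-fold. All changes are against the same 2 arrays at 0 h unless another time is named, so the 5 comparisons are not independent of each other. All 7 measured genes of an interferon check list were called higher at every time, with log2 changes between 2.53 and 5.20 at 4 h. As a check of the labelled cell type, levels at 0 h were ranked among the 14860 genes with exactly 1 symbol. Levels of different genes also depend on their probes, so these ranks are a rough guide. The 7 measured macrophage markers had a median percentile of 98.6, with a range from 52.9 (Mertk) to 99.9. The medians of the T cell, B cell, neutrophil, dendritic cell, fibroblast and erythroid lists lay between percentiles 29.6 and 38.3. Single genes of these lists reached up to 53.6 (Col1a1), so Mertk lay within their range. Of the macrophage markers, Fcgr1 was called higher at every time and Cd14 lower at 4 h and 8 h. Of the other cell type lists 1 gene was called, Cd4, which was higher by 0.97 at 24 h. The summed linear level of the 5 measured T cell markers was 204 and 213 at 24 h, against 162 and 182 at 0 h. Cd4 was the T cell marker called, and the other 4 (Cd3d, Cd3e, Cd3g and Cd8a) had changes between -0.44 and 0.19 at 24 h. The summed level of the 6 measured neutrophil markers was 278 and 283 at 24 h, against 321 and 377 at 0 h. Of these, S100a8 and S100a9 had changes of -1.25 and -0.92 at 24 h, neither called (adjusted p = 0.0548 and 0.11). The 2 arrays at 2 h stood further apart than other pairs, with a median absolute difference over the 145 genes of 0.29, against 0.06 to 0.14 at the other times. Array 12 at 2 h and arrays 15 and 16 at 4 h had the lowest upper quartiles of all features, 7.77, 7.86 and 7.89, and the others lay between 7.93 and 8.15.

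At 1 h no SLC gene was called in either direction (0 also at an unadjusted p), against 0.467% of all features and 1% of genes with 1 symbol and a mean of at least 6 called higher, and 0.0814% and 0.0716% called lower. At 2 h 7 of the 145 were called higher (4.83%) and none lower (2 at an unadjusted p). The background at 2 h was 1.54% of all features and 3.29% of expressed genes, those with 1 symbol and a mean of at least 6, called higher, and 0.621% and 0.788% called lower. Without array 2 or array 4, the arrays at 0 h, the count called higher at 2 h was 1 and 0. Without array 12 at 2 h it was 7, of which 6 were the same genes, and without array 10, the other at 2 h, it was 4, all of them the same.

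The largest numbers were reached at 4 h, when 15 SLC genes were called higher (10.3%) and 12 lower (8.28%). The background at 4 h was 3.59% of all features and 6.72% of expressed genes called higher, and 3.95% and 8.25% called lower. The share called lower thus lay at that of expressed genes. At 8 h 7 genes were higher (4.83%), with 1.5% of all features and 2.88% of expressed genes, and 1 was lower (0.690%), with 0.544% and 1%. At 24 h 1 gene was higher (0.690%), with 0.613% and 1.25% of the backgrounds, and 2 were lower (1.38%), with 0.836% and 1.56%. The median change of the 145 genes was 0.09, 0.01, -0.18, 0.01 and 0.05 at 1, 2, 4, 8 and 24 h, and that of expressed genes was 0.05, -0.06, -0.17, -0.06 and 0.00.

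**Figure D1:**
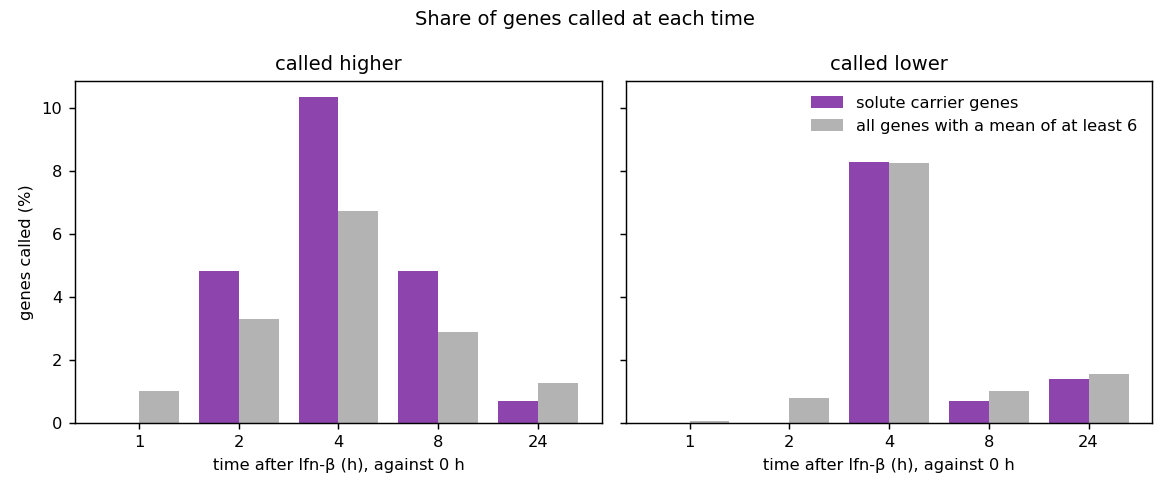
Share of genes called (%, y axis) higher (left) and lower (right) than at 0 h at each time after Ifn-β (x axis, h), for the 145 SLC genes (purple) and the 8379 genes with 1 symbol and a mean level of at least 6 (grey). Both sets peaked at 4 h, with 10.3% of SLC genes higher and 8.28% lower.

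Over all 5 times 30 SLC genes were called against 0 h, 17 of them higher and 13 lower, and 115 were called at no time. The 30 are 20.7% of the 145, against a background of 9.12% of all features and 17.7% of expressed genes called at 1 or more of these times. The genes called higher are 11.7% of the 145, with backgrounds of 4.19% and 7.73%, and those called lower 8.97%, with 4.96% and 10%. The counts by substrate class given below are of calls at any of the 5 times, over classes of 2 to 29 genes, and are read as descriptions. Of the genes called higher, 7 were first called at 2 h, 9 at 4 h and 1 at 24 h, and of those called lower 12 were first called at 4 h and 1 at 24 h. The change was largest at 4 h in 12 of the 17 and in 11 of the 13. In each of the 30, both arrays of the time of the largest called change lay outside the range of the 2 arrays at 0 h. Of the 45 calls against 0 h, 12 held when any 1 of the 12 arrays was left out, and these belong to 9 genes named below, all of them higher than at 0 h.

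**Figure D2:**
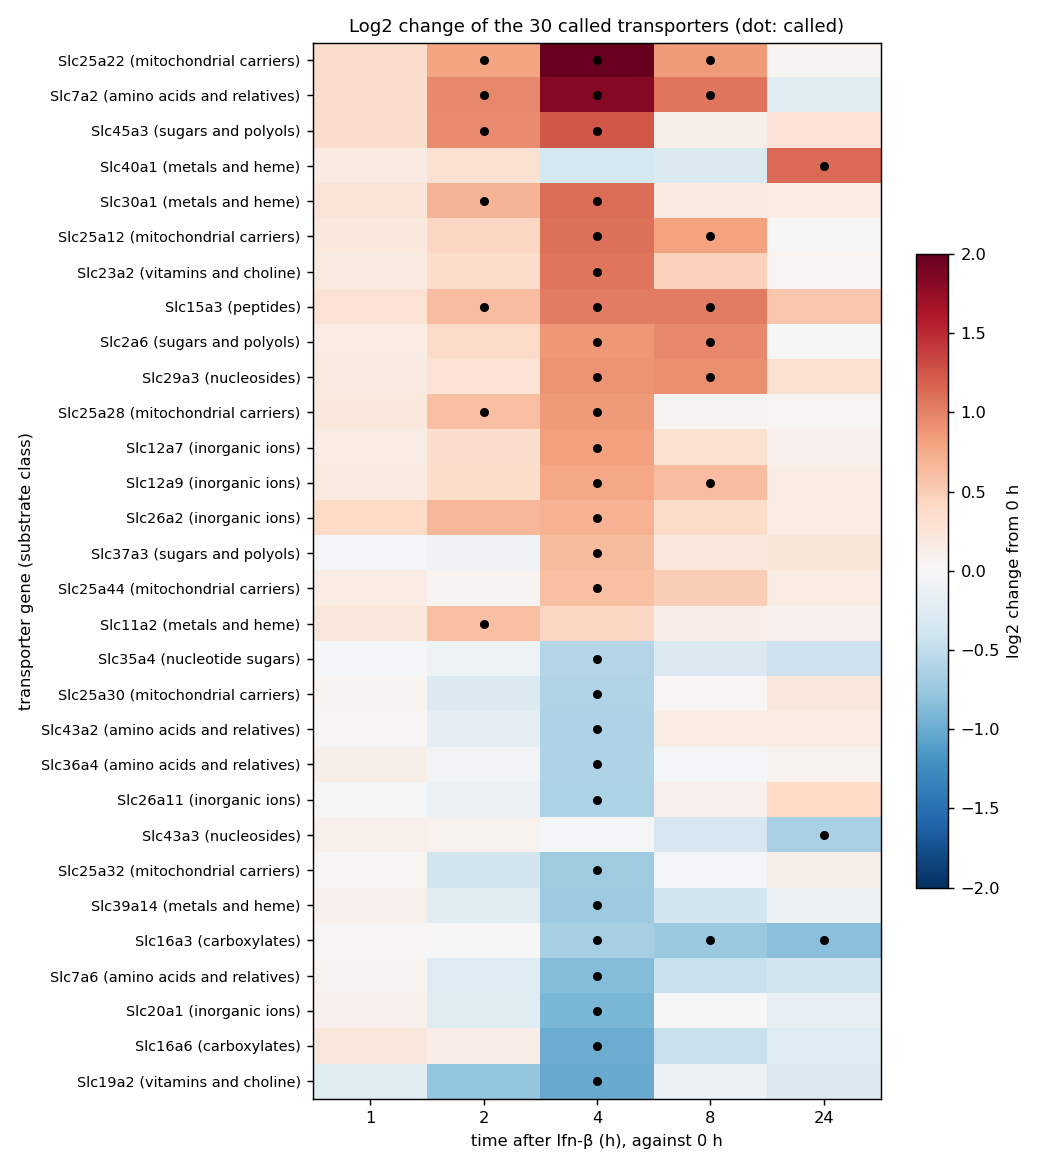
Log2 change from 0 h (colour, red higher and blue lower) of the 30 called SLC genes (rows, with substrate class) at 1, 2, 4, 8 and 24 h after Ifn-β (columns); a dot marks a call. Dots are most frequent at 4 h, and Slc40a1 and Slc43a3 are the 2 genes with a dot at 24 h alone.

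Mitochondrial carriers of the inner membrane, family SLC25, formed the largest class with 29 genes, of which 4 were called higher and 2 lower (6 genes, 20.7%, the share over all 145). The highest at 0 h was Slc25a3, the phosphate carrier, at 11.58 ± 0.03 (SD, n = 2), with changes between -0.11 and 0.12 over the 5 times. The largest rise of all SLC genes was that of Slc25a22 (transcript cluster 6972204), a carrier that brings glutamate into the mitochondrion with a proton. It read 7.37 and 7.32 untreated, 7.74 and 7.64 after 1 h, 8.21 and 8.06 after 2 h, 9.25 and 9.42 after 4 h, 8.20 and 8.18 after 8 h, and 7.50 and 7.29 after 24 h. Both arrays were above both 0 h arrays at each time to 8 h, and the 24 h arrays overlapped them. At 4 h the change was 1.99 ± 0.12 on the log2 scale (3.97-fold higher, adjusted p = 2.17e-05), and it was 0.79 at 2 h (adjusted p = 0.0106) and 0.85 at 8 h (adjusted p = 0.00738). The 4 h call held without any 1 array (highest adjusted p = 5.53e-04), the 2 h call was lost without array 2 or array 4 at 0 h (adjusted p up to 0.0815), and the 8 h call without any of the arrays at 0 h or 8 h (adjusted p up to 0.0769). From the RefSeq promoter table (build GRCm38.p6, 250 bases before to 50 after a start), 1 of 3 starts of this gene, chr7:141435326-141435625 on the minus strand, is shown because it was the promoter of a called SLC gene that held the ISRE core GAAANNGAAA, searched on both strands. The match is in capitals and begins 79 bases before the start.
Slc25a22 promoter: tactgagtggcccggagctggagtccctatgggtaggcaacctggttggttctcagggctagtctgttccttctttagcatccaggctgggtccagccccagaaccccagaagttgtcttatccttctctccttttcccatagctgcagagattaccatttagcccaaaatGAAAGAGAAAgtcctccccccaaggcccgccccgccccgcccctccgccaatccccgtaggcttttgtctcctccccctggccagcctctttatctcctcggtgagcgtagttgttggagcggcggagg
The ISRE core was in 3.44% of all promoters in that table (3.99% of genes) and in 3 of the 116 SLC genes matched to it by symbol (Slc25a15, Slc25a22 and Slc37a1). Of the called genes, 11 of those higher and 7 of those lower were matched, with 1 and 0 that held the core. The gamma-activated site TTCNNNGAA, in 8.30% of promoters (9.55% of genes), was in 6 of the 116 and in none of these 18 called genes.

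Slc25a12 encodes aralar, which exchanges mitochondrial aspartate for cytosolic glutamate. It read 9.23 and 9.16 untreated, 9.43 and 9.38 after 1 h, 9.66 and 9.56 after 2 h, 10.33 and 10.25 after 4 h, 10.01 and 9.99 after 8 h, and 9.23 and 9.17 after 24 h. All arrays at 1 to 8 h lay above both 0 h arrays, and those at 24 h returned to the 0 h range. The changes were 1.10 ± 0.09 on the log2 scale (2.14-fold higher, adjusted p = 2.08e-04) at 4 h and 0.81 ± 0.09 on the log2 scale (1.75-fold higher, adjusted p = 0.00274) at 8 h, and both calls held without any 1 array. Slc25a13, the other aspartate-glutamate carrier of the family, changed by -0.53 at 4 h (adjusted p = 0.0516) and was not called.

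Slc25a28 (mitoferrin 2), which imports iron into mitochondria, read 8.09 and 8.05 untreated, 8.22 and 8.33 after 1 h, 8.69 and 8.64 after 2 h, 8.86 and 8.97 after 4 h, 8.20 and 8.05 after 8 h, and 8.22 and 7.99 after 24 h. Both arrays were above both 0 h arrays at 1, 2 and 4 h and overlapped them at 8 h and 24 h. The change was 0.85 ± 0.12 on the log2 scale (1.8-fold higher, adjusted p = 0.00298) at 4 h and 0.60 at 2 h (adjusted p = 0.0383). Its 4 h call held without any 1 array, whereas that at 2 h was lost without any of 10 arrays (adjusted p up to 0.181). Slc25a37, mitoferrin 1, had changes between -0.24 and 0.19 with no call. Slc25a44, a carrier of branched-chain amino acids, changed by 0.60 ± 0.13 on the log2 scale (1.52-fold higher, adjusted p = 0.0254) at 4 h, a call that was lost without any of the arrays at 0 h or 4 h (adjusted p up to 0.148).

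The 2 mitochondrial carriers that were called lower were so at 4 h. Slc25a32, a carrier of folate and flavin nucleotides, read 8.08 and 7.79 untreated, 8.05 and 7.90 after 1 h, 7.80 and 7.32 after 2 h, 7.27 and 7.19 after 4 h, 7.92 and 7.90 after 8 h, and 8.15 and 7.96 after 24 h, with both 4 h arrays below the 0 h arrays. The change was -0.71 ± 0.17 on the log2 scale (1.63-fold lower, adjusted p = 0.0403). Slc25a30 (kidney mitochondrial carrier protein), of the uncoupling protein branch, changed by -0.61 ± 0.13 on the log2 scale (1.52-fold lower, adjusted p = 0.0214), from arrays that read 7.97 and 8.01 at 4 h, against 8.64 and 8.55 at 0 h. The call of Slc25a32 was lost without any of 10 arrays (adjusted p up to 0.237) and that of Slc25a30 without any of the arrays at 0 h or 4 h (adjusted p up to 0.136). Both failed under a second quantile normalization or centring of each array on its median.

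**Figure D3:**
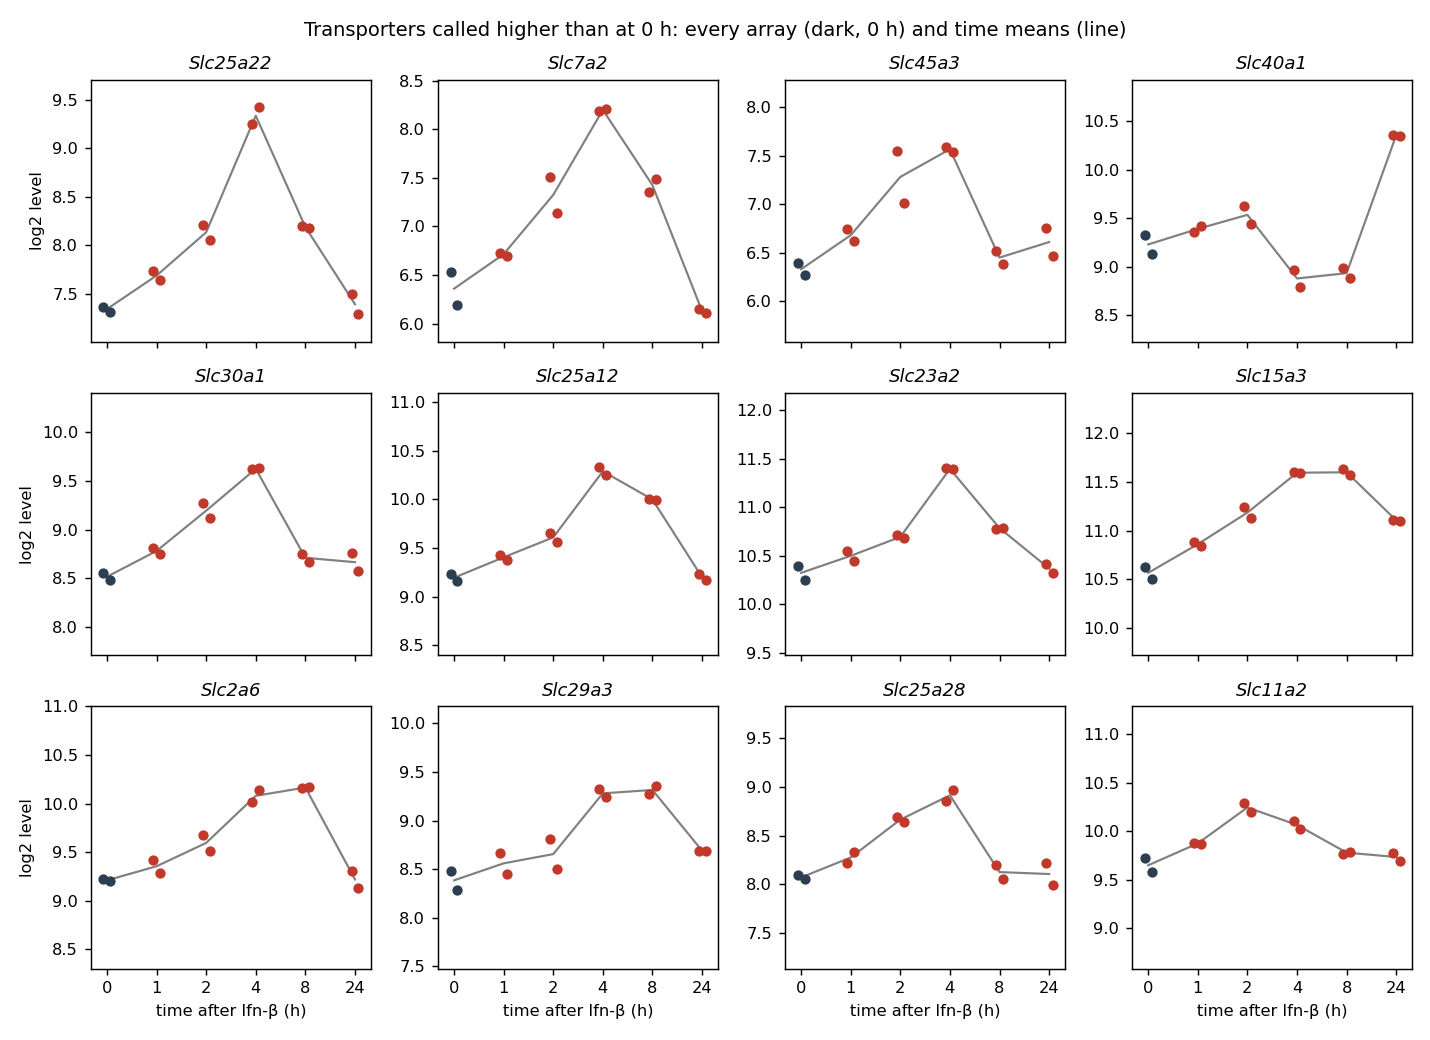
Log2 level (y axis, each panel spanning the same range) in every array (points, dark at 0 h) and the mean of the 2 arrays (line) against time after Ifn-β (x axis, h, categories) for 12 SLC genes called higher. Most peak at 4 h, Slc11a2 peaks at 2 h, and Slc40a1 is highest at 24 h with arrays at 10.36 and 10.35.

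Amino acid transporters numbered 21, of which 1 was called higher and 3 lower. The highest at 0 h was Slc6a6, the taurine transporter, at 11.65 ± 0.06 (SD, n = 2). Slc7a2 (Cat2, transcript cluster 6975658), which imports arginine and other cationic amino acids and is known from activated macrophages, had the second largest rise of all SLC genes. It read 6.53 and 6.19 untreated, 6.73 and 6.70 after 1 h, 7.51 and 7.14 after 2 h, 8.19 and 8.21 after 4 h, 7.36 and 7.49 after 8 h, and 6.15 and 6.11 after 24 h. Both arrays exceeded both 0 h arrays at 1, 2, 4 and 8 h, and both were below them at 24 h. The change was 1.84 ± 0.15 on the log2 scale (3.58-fold higher, adjusted p = 1.80e-04) at 4 h, 0.97 at 2 h (adjusted p = 0.015) and 1.07 at 8 h (adjusted p = 0.00937). At 24 h it was -0.23 (adjusted p = 0.572), which was not called, and 24 h against 8 h it was -1.30 ± 0.15 on the log2 scale (2.45-fold lower, adjusted p = 0.00712). The 4 h call held without any 1 array, the 2 h call was lost without array 4 at 0 h (adjusted p = 0.10), and the 8 h call without array 4 or either 8 h array (adjusted p up to 0.0896). Slc7a1, the constitutive cationic amino acid transporter, changed by 0.42 at both 1 h and 2 h, then by -0.13 at 4 h, without a call.

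Among enzymes of arginine use and polyamine synthesis (6 of 9 listed were measured), Arg2, the mitochondrial arginase, was called higher by 1.02 ± 0.16 (adjusted p = 0.0161) at 2 h and 0.96 ± 0.16 (adjusted p = 0.00888) at 4 h. Srm, spermidine synthase, was called lower, with a change of -0.75 ± 0.14 at 4 h (adjusted p = 0.0116). Nos2, inducible nitric oxide synthase, changed by 0.48 at 4 h (adjusted p = 0.020) and Arg1 by 0.30 at 24 h (adjusted p = 0.395), both uncalled. Levels at 0 h were low, 4.95 for Nos2, 3.70 for Arg1 and 5.48 for Arg2. Of the 6 enzymes, 3 reached a mean of 6, the minimum set for the SLC genes.

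The amino acid transporters called lower were Slc7a6, Slc36a4 and Slc43a2, all at 4 h. Slc7a6 (y+LAT2), an exchanger of cationic for neutral amino acids, read 7.91 and 7.80 untreated, 8.02 and 7.80 after 1 h, 7.93 and 7.27 after 2 h, 7.09 and 6.87 after 4 h, 7.29 and 7.54 after 8 h, and 7.55 and 7.42 after 24 h. Both 4 h arrays were the lowest of the 12, and the change was -0.88 ± 0.21 on the log2 scale (1.83-fold lower, adjusted p = 0.0379). Slc43a2 (LAT4), a facilitator of large neutral amino acids, read 8.76 and 8.90 at 4 h, against 9.51 and 9.37 at 0 h, a change of -0.61 ± 0.11 on the log2 scale (1.53-fold lower, adjusted p = 0.0136), and by 8 h its arrays were at 9.60 and 9.57. Slc36a4, known in human as a high-affinity proline and tryptophan transporter, read 9.46 and 9.21 untreated, 9.50 and 9.41 after 1 h, 9.48 and 9.08 after 2 h, 8.75 and 8.68 after 4 h, 9.26 and 9.32 after 8 h, and 9.54 and 9.28 after 24 h, with the 4 h pair below all others and a change of -0.62 ± 0.16 on the log2 scale (1.54-fold lower, adjusted p = 0.0481). The 3 calls were lost without array 2 at 0 h or either 4 h array, and those of Slc7a6 and Slc36a4 also without others (highest adjusted p = 0.191, 0.267 and 0.111 for Slc7a6, Slc36a4 and Slc43a2). Slc43a2 and Slc36a4 were not called under either other scaling.

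Several amino acid transporters known in macrophages were called at no time. Slc7a5 (LAT1), the leucine exchanger, had its highest change, 0.46 at 2 h (adjusted p = 0.148), and its lowest, -0.50 at 24 h (adjusted p = 0.124). Its heavy chain Slc3a2 (CD98) changed most at 8 h, by 0.37 (adjusted p = 0.126), and Slc7a11, the cystine-glutamate exchanger that shares this chain, by 0.32 at 1 h (adjusted p = 0.946). The glutamine transporter Slc1a5 read 8.73 and 8.64 at 24 h, against 9.31 and 9.23 at 0 h, and its change of -0.59 at 24 h (adjusted p = 0.119) was not called although the pairs did not overlap. Slc38a2 (Snat2) did not differ from 0 h by a call and was called higher at 8 h against 4 h, by 0.60 ± 0.10 on the log2 scale (1.52-fold higher, adjusted p = 0.0171). Slc6a8, the creatine transporter, was likewise higher at 8 h than at 4 h, by 0.65 ± 0.11 on the log2 scale (1.57-fold higher, adjusted p = 0.0159). Slc7a8 (LAT2) was called lower at 24 h against 8 h, with a change of -0.81 ± 0.13 on the log2 scale (1.75-fold lower, adjusted p = 0.025).

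Of 11 measured genes of lysosomal amino acid sensing, in which Slc38a9 and Slc36a1 take part, Sesn1, the leucine-linked inhibitor of the pathway, was called lower, with a change of -0.99 ± 0.13 at 2 h and -1.92 ± 0.13 at 4 h (adjusted p = 0.00642 and 6.12e-05). Rragd, a Rag GTPase, was also called lower, with a change of -1.14 ± 0.20 at 4 h (adjusted p = 0.0112). Slc38a9 itself had changes between -0.15 and 0.23 and Slc36a1 between -0.57 and 0.01, without a call.

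Transporters of metals and heme numbered 25, of which 3 were called higher and 1 lower. Slc40a1 (ferroportin, transcript cluster 6758435), the exporter of cellular iron, was the SLC gene called higher at 24 h. It read 9.33 and 9.13 untreated, 9.36 and 9.42 after 1 h, 9.63 and 9.44 after 2 h, 8.97 and 8.79 after 4 h, 8.99 and 8.88 after 8 h, and 10.36 and 10.35 after 24 h. The arrays at 4 h and 8 h were the 4 lowest and those at 24 h the 2 highest of the 12. The change at 24 h was 1.13 ± 0.12 on the log2 scale (2.18-fold higher, adjusted p = 0.00484), and 24 h against 8 h it was 1.42 ± 0.12 on the log2 scale (2.68-fold higher, adjusted p = 0.00142). The call against 0 h was lost without either 24 h array (adjusted p up to 0.0603), while that against 8 h held without any 1 array. Its changes of -0.35 at 4 h and -0.30 at 8 h were not called (adjusted p = 0.121 and 0.323). At 24 h Cd4 also rose and the summed neutrophil markers read lower, as given above, and the part of either in this result was not tested.

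Slc11a2 (Dmt1), the importer of ferrous iron, read 9.72 and 9.58 untreated, 9.88 and 9.87 after 1 h, 10.29 and 10.20 after 2 h, 10.11 and 10.02 after 4 h, 9.77 and 9.79 after 8 h, and 9.78 and 9.69 after 24 h. All arrays at 1, 2 and 4 h were above both 0 h arrays, and the largest change, 0.60 ± 0.10 on the log2 scale (1.51-fold higher, adjusted p = 0.0184), was at 2 h. At 4 h it was 0.42 (adjusted p = 0.0353), under 1.5-fold. The 2 h call was lost without either 0 h array or array 10 (adjusted p up to 0.131) and after a second quantile normalization. Slc11a1 (Nramp1), the exporter of iron and manganese from the phagosome, was the highest of the class at 0 h, at 11.18 ± 0.04 (SD, n = 2). Its 8 h arrays of 10.72 and 10.70 lay below 11.15 and 11.20 at 0 h, with a change of -0.47 and an adjusted p of 0.0461, under the fold limit. The arrays read RNA, and whether the Slc11a1 protein works in cells of this Balb-C strain was not tested. Slc48a1 (Hrg1), which exports heme from the lysosome, changed by -0.42 at 4 h (adjusted p = 0.0433), also under the limit. Slc49a4 and the magnesium transporters Slc41a1, Slc41a2 and Slc41a3 were not called.

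Of 11 measured partners in iron handling, Hmox1, heme oxygenase, was called lower, with a change of -0.64 ± 0.13 at 4 h (adjusted p = 0.0213), and Tfrc, the transferrin receptor, was called lower with -0.71 ± 0.13 at 24 h (adjusted p = 0.0412). Aco1 and the heme exporter Flvcr1 changed by -0.565 and -0.51 at 4 h (adjusted p = 0.0257 and 0.0387), both under the fold limit. Ferritin heavy chain Fth1 changed by at most 0.12.

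Slc30a1 (ZnT1, transcript cluster 6756403), which exports zinc from the cell and is a classical target of the metal-responsive factor Mtf1, read 8.55 and 8.48 untreated, 8.81 and 8.75 after 1 h, 9.27 and 9.12 after 2 h, 9.62 and 9.63 after 4 h, 8.75 and 8.67 after 8 h, and 8.76 and 8.57 after 24 h. Every array at 1, 2 and 4 h was above both 0 h arrays, and the 8 h and 24 h arrays were also above them, at 8.57 to 8.76. The change was 0.68 at 2 h (adjusted p = 0.0147) and 1.11 ± 0.11 on the log2 scale (2.16-fold higher, adjusted p = 4.47e-04) at 4 h, and 8 h against 4 h it was -0.92 ± 0.11 on the log2 scale (1.89-fold lower, adjusted p = 0.00335). The 4 h call and the fall to 8 h held without any 1 array, and the 2 h call was lost without either 0 h array (adjusted p up to 0.107). Its RefSeq promoter (GRCm38.p6, chr1:191906531-191906830, plus strand) is shown for the metal response element core, TGCGCNC or TGCACNC on either strand, a motif added after the values were seen. Matches, both on the reverse strand, are in capitals and begin 43 bases before and 30 bases after the start.
Slc30a1 promoter: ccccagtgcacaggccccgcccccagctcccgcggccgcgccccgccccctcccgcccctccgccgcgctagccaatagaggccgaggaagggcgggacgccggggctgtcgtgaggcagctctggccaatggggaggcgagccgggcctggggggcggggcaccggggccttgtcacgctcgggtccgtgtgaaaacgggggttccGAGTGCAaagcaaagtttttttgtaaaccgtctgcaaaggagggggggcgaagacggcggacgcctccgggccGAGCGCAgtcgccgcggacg
This short core was in 25.7% of all promoters (28.2% of genes), in 55 of the 116 matched SLC genes, in 5 of the 11 matched genes called higher (Slc12a9, Slc23a2, Slc30a1, Slc37a3 and Slc45a3) and in 1 of the 7 called lower (Slc20a1). The 5 of 11 lay near the 55 of 116 of the matched SLC genes. At 4 h the metallothioneins Mt1 and Mt2 and the factor Mtf1 changed by -0.315, -0.38 and -0.285, none of them called. The part of Mtf1 in the rise of Slc30a1 was not tested.

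Slc39a14 (Zip14), an importer of zinc and of iron not bound to transferrin, read 7.10 and 6.93 untreated, 7.24 and 6.96 after 1 h, 7.05 and 6.53 after 2 h, 6.28 and 6.29 after 4 h, 6.68 and 6.62 after 8 h, and 6.89 and 6.90 after 24 h. Both 4 h arrays were below all others, and the change was -0.73 ± 0.17 on the log2 scale (1.66-fold lower, adjusted p = 0.0354). That call was lost without any of 8 arrays, those at 0, 4, 8 and 24 h (adjusted p up to 0.20), and after centring on the median. Slc39a6 (Zip6) was not called against 0 h at 4 h, with -0.56 and an adjusted p of 0.0324, and was called higher at 8 h against 4 h by 0.75 ± 0.13 on the log2 scale (1.68-fold higher, adjusted p = 0.0184). Of 7 measured zinc and copper partners, the metallothionein Mt2 was called lower, with a change of -1.60 ± 0.18 at 8 h (adjusted p = 0.00274), and Mt1 changed by -0.54 (adjusted p = 0.040), under the fold limit.

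Of 11 sugar and polyol transporters 3 were called higher and none lower. Slc2a6 (Glut6), a glucose transporter family member of the lysosome, read 9.22 and 9.20 untreated, 9.42 and 9.29 after 1 h, 9.68 and 9.51 after 2 h, 10.02 and 10.14 after 4 h, 10.16 and 10.17 after 8 h, and 9.31 and 9.13 after 24 h. Arrays at 4 and 8 h lay above all others, and at 24 h they straddled the 0 h values. The changes were 0.87 ± 0.11 on the log2 scale (1.83-fold higher, adjusted p = 0.00226) at 4 h and 0.96 ± 0.11 on the log2 scale (1.94-fold higher, adjusted p = 0.00298) at 8 h, both calls held without any 1 array, and 24 h against 8 h the change was -0.95 ± 0.11 on the log2 scale (1.93-fold lower, adjusted p = 0.00725). Slc2a1 (Glut1), the main glucose importer of the plasma membrane, read 9.65 and 9.56 at 4 h, against 10.06 and 9.90 at 0 h, with a change of -0.38 that was not called (adjusted p = 0.0944). Slc2a3 changed by -0.35 at 4 h (adjusted p = 0.232).

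Slc45a3, a sugar transporter family member first known from prostate, read 6.39 and 6.27 untreated, 6.74 and 6.62 after 1 h, 7.55 and 7.01 after 2 h, 7.59 and 7.54 after 4 h, 6.52 and 6.38 after 8 h, and 6.75 and 6.47 after 24 h. The arrays at 1, 2 and 4 h were above both 0 h arrays, and those at 8 h overlapped them. The change was 0.95 at 2 h (adjusted p = 0.0356) and 1.24 ± 0.18 on the log2 scale (2.35-fold higher, adjusted p = 0.00418) at 4 h, and 8 h against 4 h it was -1.12 ± 0.18 on the log2 scale (2.17-fold lower, adjusted p = 0.0127). No single array was needed for the 4 h call, and that at 2 h was lost without any of 10 arrays (adjusted p up to 0.172). Slc37a3, of the sugar-phosphate exchanger family, changed by 0.64 ± 0.14 on the log2 scale (1.56-fold higher, adjusted p = 0.0253) at 4 h, a call lost without any of the arrays at 0 h or 4 h (adjusted p up to 0.162). Slc37a2, of the same family, was the highest of the class at 0 h, at 10.64 ± 0.11 (SD, n = 2), and was not called.

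Of 16 listed glycolysis genes 9 were measured. Pfkfb3, which makes the activator of phosphofructokinase, was called higher by 1.02 ± 0.12 at 2 h and 1.96 ± 0.12 at 4 h (adjusted p = 0.00291 and 2.82e-05). Hexokinase 1 (Hk1) and the platelet phosphofructokinase Pfkp were higher at 4 h by 0.66 and 0.61 (adjusted p = 0.00892 and 0.00562). None of the 9 was called lower at any time. Of expressed genes, 6.72% were called higher at 4 h and 10% lower at 1 or more times. The absence of lower calls among 9 genes is therefore read as a description. Pfkl, the liver phosphofructokinase, changed by -0.545 at 4 h (adjusted p = 0.0287), under the fold limit. The median change of the 9 at 4 h was 0.005.

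Carboxylate transporters numbered 7, of which none was called higher and 2 were called lower. Slc16a3 (Mct4), which exports lactate, read 9.21 and 9.15 untreated, 9.27 and 9.14 after 1 h, 9.31 and 9.02 after 2 h, 8.56 and 8.46 after 4 h, 8.45 and 8.44 after 8 h, and 8.42 and 8.27 after 24 h. It was called lower at 4 h, 8 h and 24 h, the 1 gene called at all 3 in that direction, and all 6 arrays of those times lay below the other 6. The changes were -0.67 ± 0.12 on the log2 scale (1.59-fold lower, adjusted p = 0.0124) at 4 h, -0.74 ± 0.12 on the log2 scale (1.66-fold lower, adjusted p = 0.021) at 8 h and -0.84 ± 0.12 on the log2 scale (1.78-fold lower, adjusted p = 0.0188) at 24 h. Each call was lost without any of the 4 arrays it compares (adjusted p up to 0.0924, 0.148 and 0.147 at 4, 8 and 24 h), and the 4 h call was kept under both other scalings.

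Slc16a6 (Mct7), a monocarboxylate transporter family member, read 8.16 and 7.91 untreated, 8.36 and 8.15 after 1 h, 8.41 and 7.92 after 2 h, 6.82 and 7.28 after 4 h, 7.61 and 7.57 after 8 h, and 7.82 and 7.72 after 24 h. The 4 h pair was the lowest and differed by 0.46 between wells, the largest such gap among the 145 genes at 4 h. The change was -0.99 ± 0.20 on the log2 scale (1.98-fold lower, adjusted p = 0.0203) at 4 h, and the call was lost without either 0 h array or array 15 (adjusted p up to 0.14). Slc16a1 (Mct1), a lactate and pyruvate carrier, read 7.86 and 7.72 at 8 h, against 8.53 and 8.28 at 0 h, and its change of -0.62 at 8 h (adjusted p = 0.135) was not called. The highest at 0 h was Slc16a7 (Mct2), at 9.55 ± 0.08 (SD, n = 2), with changes between -0.12 and 0.16. None of 6 measured chaperones and heavy chains was called, Bsg and Emb among them, which carry monocarboxylate transporters to the membrane. Of expressed genes, 17.7% were called at 1 or more times.

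**Figure D4:**
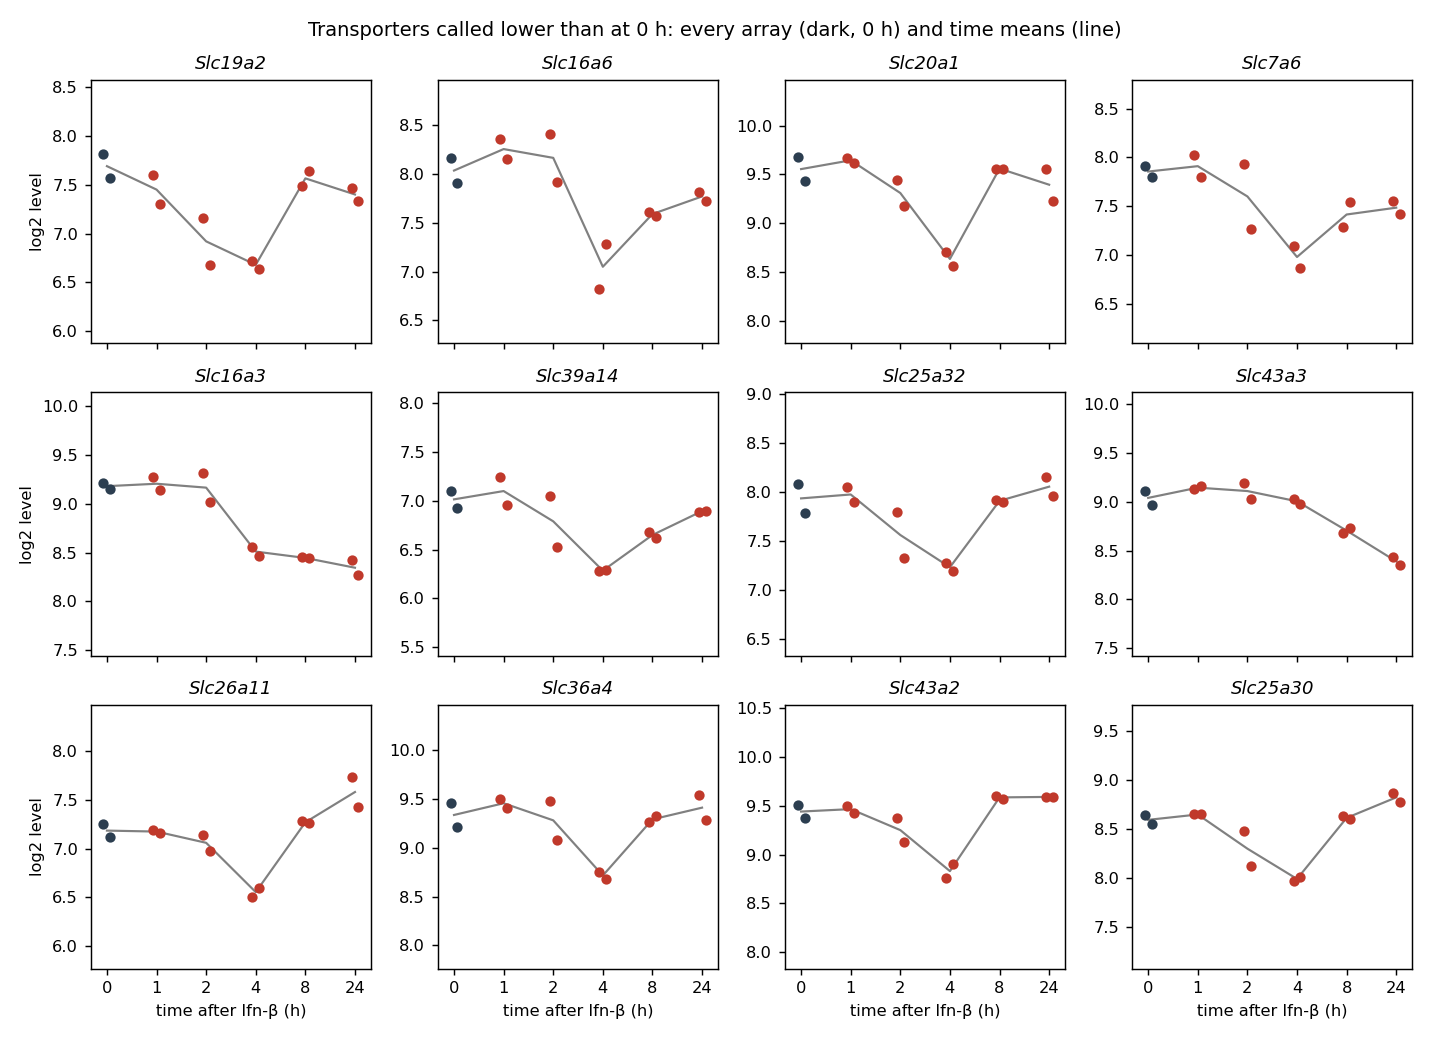
Log2 level (y axis, each panel spanning the same range) in every array (points, dark at 0 h) and the mean of the 2 arrays (line) against time after Ifn-β (x axis, h, categories) for 12 SLC genes called lower. Slc16a3 is the gene called lower at 4, 8 and 24 h (arrays at 8.27 to 8.56), and Slc43a3 is lowest at 24 h (8.43 and 8.35). Arrays of Slc7a6, Slc16a6 and Slc39a14 also stay below both 0 h arrays from 4 h on.

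Transporters of inorganic ions numbered 16, of which 3 were called higher and 2 lower. The highest at 0 h and the one with the largest fall was Slc20a1 (Pit1), the sodium-coupled phosphate importer, which read 9.68 and 9.43 untreated, 9.67 and 9.62 after 1 h, 9.44 and 9.18 after 2 h, 8.71 and 8.56 after 4 h, 9.56 and 9.56 after 8 h, and 9.56 and 9.23 after 24 h. The 4 h arrays were the lowest of the 12, and those at 8 h were within the 0 h range. The change was -0.92 ± 0.15 on the log2 scale (1.89-fold lower, adjusted p = 0.00741) at 4 h, and 8 h against 4 h it was 0.93 ± 0.15 on the log2 scale (1.9-fold higher, adjusted p = 0.0137). The 4 h call was lost without array 2 or array 16 (adjusted p up to 0.0651), and the return to 8 h without any of the arrays at 4 h or 8 h (adjusted p up to 0.116).

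Slc26a11, a sulfate and chloride transporter of the SLC26 family, read 7.25 and 7.12 untreated, 7.19 and 7.16 after 1 h, 7.14 and 6.98 after 2 h, 6.51 and 6.60 after 4 h, 7.28 and 7.26 after 8 h, and 7.73 and 7.43 after 24 h. The 4 h arrays were the lowest and the 24 h arrays the highest of the 12. At 4 h the change was -0.63 ± 0.12 on the log2 scale (1.55-fold lower, adjusted p = 0.017), a call lost without any of the arrays at 0 h or 4 h (adjusted p up to 0.122) and under both other scalings. The sulfate transporter Slc26a2 moved the other way at 4 h, with 9.44 and 9.26 at 4 h, against 8.88 and 8.44 at 0 h, a change of 0.69 ± 0.17 on the log2 scale (1.61-fold higher, adjusted p = 0.0414). Its 0 h arrays differed by 0.44, the largest gap of the 145 genes at 0 h, and the call was lost without any of 7 arrays (adjusted p up to 0.221).

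Slc12a7 (Kcc4), a potassium-chloride exporter, read 8.31 and 8.25 at 4 h, against 7.54 and 7.37 at 0 h, a change of 0.83 ± 0.13 on the log2 scale (1.77-fold higher, adjusted p = 0.00663). Slc12a9, a family member without a settled substrate, was counted here with its family. It read 8.07 and 8.15 at 4 h, against 7.34 and 7.33 at 0 h, a change of 0.78 ± 0.12 on the log2 scale (1.71-fold higher, adjusted p = 0.00557). It was also called higher by 0.62 at 8 h (adjusted p = 0.0397). Slc12a7 lost its 4 h call without array 4 or array 15 (adjusted p up to 0.0585) and Slc12a9 without array 16 (adjusted p = 0.0519). The 8 h call of Slc12a9 was lost without any of 10 arrays (adjusted p up to 0.245). Slc9a9, a sodium-proton exchanger of endosomes, changed by -0.73 at 8 h without passing the test (adjusted p = 0.0631).

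Of the 2 proton-coupled peptide and histidine transporters of the endolysosome, 1 was called. Slc15a3 (Pht2, transcript cluster 6868058) was the highest of the class at 0 h and read 10.63 and 10.50 untreated, 10.88 and 10.84 after 1 h, 11.24 and 11.13 after 2 h, 11.60 and 11.59 after 4 h, 11.63 and 11.57 after 8 h, and 11.11 and 11.10 after 24 h. All 10 arrays after treatment lay above both 0 h arrays. The change was 0.62 at 2 h (adjusted p = 0.0132), 1.03 ± 0.10 on the log2 scale (2.04-fold higher, adjusted p = 3.44e-04) at 4 h and 1.04 ± 0.10 on the log2 scale (2.05-fold higher, adjusted p = 6.70e-04) at 8 h. At 24 h it was 0.54 (adjusted p = 0.0361), which passed the p limit and not the fold limit. The 4 h and 8 h calls held without any 1 array, and the 2 h call was lost without either 0 h array or array 10 (adjusted p up to 0.105). Slc15a4 (Pht1), which is needed for signalling by endosomal Toll-like receptors, read 9.39 and 9.34 untreated, 9.30 and 9.33 after 1 h, 9.17 and 8.97 after 2 h, 9.42 and 9.38 after 4 h, 9.87 and 9.89 after 8 h, and 9.87 and 9.69 after 24 h. The 8 h and 24 h arrays were the 4 highest, and the 8 h change of 0.52 was not called (adjusted p = 0.056).

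Vitamin and choline transporters numbered 7, of which 1 was called higher and 1 lower. Slc23a2 (Svct2), which imports ascorbate with sodium and was the highest of the class at 0 h, read 10.40 and 10.25 untreated, 10.55 and 10.45 after 1 h, 10.71 and 10.68 after 2 h, 11.40 and 11.39 after 4 h, 10.78 and 10.79 after 8 h, and 10.42 and 10.32 after 24 h. Every array at 1 to 8 h was above both 0 h arrays, and the 24 h pair overlapped them. The change was 1.07 ± 0.10 on the log2 scale (2.1-fold higher, adjusted p = 3.27e-04) at 4 h, a call that held without any 1 array, and 8 h against 4 h it was -0.61 ± 0.10 on the log2 scale (1.53-fold lower, adjusted p = 0.0126). Slc19a2, the thiamine transporter, had the largest fall of the SLC genes and read 7.81 and 7.57 untreated, 7.60 and 7.30 after 1 h, 7.16 and 6.68 after 2 h, 6.72 and 6.64 after 4 h, 7.49 and 7.64 after 8 h, and 7.47 and 7.33 after 24 h. Both arrays were below both 0 h arrays at 2, 4 and 24 h, with a change of -0.77 at 2 h (adjusted p = 0.0825), not called, and -1.01 ± 0.18 on the log2 scale (2.01-fold lower, adjusted p = 0.011) at 4 h. The 24 h change was -0.29 (adjusted p = 0.543), not called. Its 4 h call was lost without array 2, 15 or 16 (adjusted p up to 0.0897) and kept under both other scalings. The folate carriers Slc19a1 and Slc46a1 were not called, with 4 h changes of -0.16 and -0.23.

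Nucleoside and nucleobase transporters numbered 4. Slc29a3 (Ent3), an equilibrative nucleoside transporter of the lysosome, read 8.48 and 8.29 untreated, 8.67 and 8.45 after 1 h, 8.81 and 8.50 after 2 h, 9.32 and 9.24 after 4 h, 9.27 and 9.36 after 8 h, and 8.69 and 8.69 after 24 h. The 4 arrays at 4 and 8 h were the highest of the 12. The changes were 0.90 ± 0.14 on the log2 scale (1.86-fold higher, adjusted p = 0.00537) at 4 h, a call lost without array 15 (adjusted p = 0.0512), and 0.93 ± 0.14 on the log2 scale (1.91-fold higher, adjusted p = 0.0107) at 8 h, lost without array 4 or either 8 h array (adjusted p up to 0.0977). Slc43a3, a purine nucleobase transporter, read 9.11 and 8.97 untreated, 9.13 and 9.16 after 1 h, 9.19 and 9.03 after 2 h, 9.03 and 8.98 after 4 h, 8.68 and 8.73 after 8 h, and 8.43 and 8.35 after 24 h. The arrays to 4 h lay between 8.97 and 9.19 and those at 24 h were the lowest, with a change of -0.65 ± 0.10 on the log2 scale (1.57-fold lower, adjusted p = 0.0235). That call was lost without any of 10 arrays (adjusted p up to 0.181). Slc29a1 (Ent1), the highest of the class at 0 h at 9.29 ± 0.08 (SD, n = 2), changed by -0.55 at 8 h without a call (adjusted p = 0.0628).

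Of the remaining classes, nucleotide sugar transporters of the Golgi (5 genes) held 1 called gene. Slc35a4, the highest of them at 0 h, read 9.49 and 9.51 at 4 h, against 10.01 and 10.16 at 0 h, a change of -0.59 ± 0.14 on the log2 scale (1.5-fold lower, adjusted p = 0.0407) that was lost without any of 10 arrays (adjusted p up to 0.182) and after centring on the median. Lipid and acyl group transporters (3 genes), vesicular and lysosomal transporters (2 genes), and transporters of organic ions, bile acids and urea (7 genes) held none, nor did 3 genes of other or unclear substrate and the 3 that encode no transporter. The highest of these at 0 h were Slc27a1, a fatty acid transport protein, at 10.23, Slc17a5 (sialin), which exports sialic acid from the lysosome, at 10.10, Slc10a7 at 8.12, Slc66a2 at 9.25 and Slc9a3r1, a scaffold protein, at 9.12. Levels of different genes depend on their probes. The highest of a class therefore names the largest array reading and gives no ranking of RNA amount between genes.

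**Figure D5:**
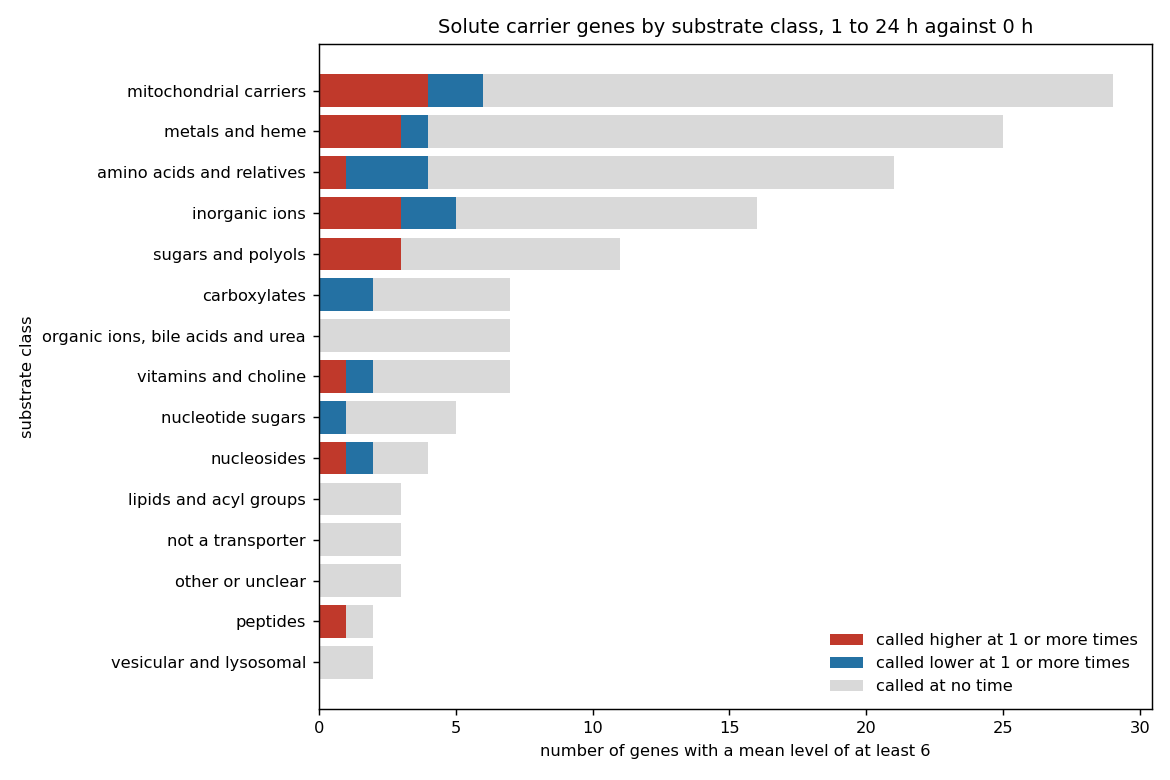
Number of SLC genes (x axis) in each substrate class (rows) that were called higher (red), called lower (blue) or at no time (grey) at 1 to 24 h after Ifn-β against 0 h. Mitochondrial carriers, the class with most genes, have 6 of 29 called (20.7%, as over all 145 genes), inorganic ion transporters 5 of 16, and carboxylate transporters 2 of 7, both lower.

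At 8 h against 4 h 10 SLC genes were called higher, against a background of 1.68% of all features and 3.78% of expressed genes, and 6 lower, against 1.62% and 3.51%. Of the 12 genes called lower at 4 h, 5 (Slc19a2, Slc20a1, Slc25a30, Slc26a11 and Slc43a2) were among the 10, and the 6 lower at 8 h (Slc7a2, Slc23a2, Slc25a22, Slc25a28, Slc30a1 and Slc45a3) were all among the 15 called higher at 4 h. These comparisons share the 4 h arrays, so a 4 h array that reads low or high enters both. The other 5 of the 10 (Slc6a8, Slc38a2, Slc39a6, Slc66a1 and Slc66a2) were called at no time against 0 h. Slc66a1, a lysosomal exporter of cationic amino acids, and Slc66a2, of the same family, were both counted here under other or unclear substrate. They were higher at 8 h than at 4 h by 0.69 ± 0.14 on the log2 scale (1.61-fold higher, adjusted p = 0.0348) and 0.86 ± 0.10 on the log2 scale (1.82-fold higher, adjusted p = 0.00371). Without any 1 of arrays 15, 16, 18 and 23, those of 4 h and 8 h, the counts were 1 higher and 2 or 3 lower.

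At 24 h against 8 h Slc40a1 was called higher, against a background of 0.21% of all features and 0.406% of expressed genes. The 5 genes called lower were Slc2a6, Slc7a2, Slc7a8, Slc25a12 and Slc25a22, against 1% and 1.53%. Without array 17 the count called lower was 1, and without array 18, 22 or 23 it was 0. None of the 16 genes called higher at 2, 4 or 8 h was called at 24 h against 0 h. Of the 12 called lower at 4 h, 1, Slc16a3, was also called at 8 h.

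The count of genes called lower at 4 h moved with the scaling of the arrays. It was 7 after a second quantile normalization (Slc7a6, Slc16a3, Slc16a6, Slc19a2, Slc20a1, Slc35a4 and Slc39a14) and 5 once arrays were set to a common median (Slc7a6, Slc16a3, Slc16a6, Slc19a2 and Slc20a1), and the counts called higher were 16 and 15. The median change of the 145 genes at 4 h was -0.06 and -0.12 under these scalings, and that of all features was -0.01 and -0.02, against -0.07 in the deposited values. Leaving out the level minimum, 16 of all 290 measured Slc genes were called higher at 4 h and 13 lower.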

How the data were processed

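Total RNA from 12 cultures was hybridised to Affymetrix Mouse Exon 1.0 ST arrays, biotin labelled, 2 per time. The authors normalized the scans by robust multi-array averaging (RMA) in Affymetrix Expression Console at the core gene level and deposited log2 values with 2 decimals, from 0.81 to 14.2; RMA subtracts background, equalizes the arrays' distributions and summarizes probes, which compresses changes of dim genes. Tool versions and the genome build are not given in the sources used here. Arrays carry no read depth, and 2 per time limit the precision.

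The deposited values were fitted with limma 3.58.1 in R 4.3.3 (lmFit and eBayes, times as groups over all arrays, residual df 6, prior df 2.31), with Benjamini-Hochberg adjustment over 23332 transcript clusters. Each time was tested against 0 h with the 1.5-fold limit and p limit of 0.05 of the study's methods; adjustment was applied because the methods do not state it. Also tested were 8 h against 4 h and 24 h against 8 h. The fit was tested on simulated data. Gene names came from the platform annotation, and promoters from RefSeq (GRCm38.p6). Named were all called genes, the highest of each class, and a panel known in macrophages, with all 12 values for the 10 largest rises and 10 largest falls. The genes, classes, lists and tests were chosen with earlier results of these data known, and the expressed-gene background, the metal response element and the classes of 2 families were added after values were seen. Alternatives were other limits, fits, scalings and level minimums, and leaving out each array.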

Additional observations from a re-analysis of the deposited data

Results flagged for a closer look

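The change of Slc40a1 (ferroportin) from 0 h differed in sign between times, and the rise at 24 h alone was called. Its change from 0 h was 1.13 at 24 h and -0.35 at 4 h, a difference of 1.48 ± 0.12 on the log2 scale (SE, limma adjusted p = 2.29e-04, both 24 h arrays above both 4 h arrays). Between 24 h and 8 h, with changes of 1.13 and -0.30, the difference was 1.42 ± 0.12 (adjusted p = 0.00142). The changes at 4 h and 8 h were not themselves called.

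Slc26a11 changed by 0.40 at 24 h and by -0.63 at 4 h, a difference of 1.03 ± 0.12 (SE, limma adjusted p = 0.00172, both 24 h arrays above both 4 h arrays). Its change at 24 h was not called. The 4 h call of Slc26a11 was lost without any of the arrays at 0 h or 4 h and under both other scalings.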

How the results depend on the processing

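Between 4 h and 0 h, the 15 genes called higher stayed within 1.5 times that count under other fits and scalings and numbered 7 at 2-fold, and the 12 called lower numbered 1 at 2-fold, 2 in a fit of the 2 times alone, 7 after a second quantile normalization and 5 after median centring. At 2 h the 7 higher numbered 0 at 2-fold and 0 with the 2 times alone, and the 0 lower became 2 at an unadjusted p, 1 after quantile normalization and 1 without the dimmest 30% of features. At 8 h the 7 higher numbered 2 at 2-fold and 0 with the 2 times alone, and the 1 lower became 3 at an unadjusted p, 2 without a fold limit, 0 at 2-fold, 0 with the 2 times alone, and 2 each with eBayes trend and robust, quantile normalization, and without the dimmest 30%. At 24 h the 1 higher became 2 without a fold limit and 0 with the 2 times alone, and the 2 lower numbered 0 at 2-fold and 0 with the 2 times alone. For 8 h against 4 h, the 10 higher numbered 0 at 2-fold and 0 with the 2 times alone, and the 6 lower 2 and 2. For 24 h against 8 h, the 1 higher became 3 at an unadjusted p, 0 with the 2 times alone, 2 with trend and robust, 3 after quantile normalization and 2 without the dimmest 30%, and the 5 lower became 8 at an unadjusted p, 1 at 2-fold, 0 with the 2 times alone and 8 after quantile normalization. The fit of 2 times alone holds 4 arrays; other causes were not tested.

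Leaving out 1 array at a time gave 0 to 7 genes higher and 0 to 2 lower at 2 h, 10 to 15 higher and 0 to 12 lower at 4 h, 3 to 7 and 0 to 2 at 8 h, and 0 to 1 and 0 to 3 at 24 h. For 8 h against 4 h it gave 1 to 11 higher and 2 to 6 lower, and for 24 h against 8 h 1 to 3 and 0 to 8. The genes called lower at 4 h numbered 0 without array 2, 3 without array 4, and 1 without array 15 or 16. At 2 h the genes called higher numbered 1 without array 2 and 0 without array 4. At 8 h those higher numbered 3 without array 4, 18 or 23, and at 24 h no gene was called in either direction without array 17 or 22. At 1 h no setting called a gene. In such a fit the remaining array of that time stands alone and is assumed to vary like the other times. Alternatives were run for 41 changes of single SLC genes, and none of these reversed. No paired analysis was possible because the arrays of different times share no replicate number.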

Other observations

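Other transporter families and the remaining nucleotide sugar carriers were measured on the same arrays. No level minimum was set for them. A mean of 6 was reached by 2 of 13 Slco, 23 of 42 Abc and 14 of 20 Slc35 b to g genes. The background at 4 h was 3.59% of all features called higher and 3.95% called lower. Of 13 genes of the Slco family of organic anion transporters, Slco3a1, which in human carries prostaglandins, was called higher by 1.12 ± 0.10 (SE) on the log2 scale at 4 h and by 1.15 ± 0.10 at 8 h (limma adjusted p = 2.46e-04 and 4.04e-04). Of 42 genes of the ATP-binding cassette (Abc) family, Abcb1a, a P-glycoprotein drug exporter, was higher by 1.95 ± 0.17 at 4 h and 1.44 ± 0.17 at 8 h (adjusted p = 2.09e-04 and 0.00271). The cholesterol exporters moved in opposite directions at 4 h: Abcg1 was called higher by 0.96 ± 0.11 and Abca1 lower, with a change of -1.36 ± 0.15 (adjusted p = 0.00133 and 9.94e-04). Abcg1 was also higher at 2 h and 8 h, by 0.60 and 0.92 (adjusted p = 0.0345 and 0.00376). Abcc1 was lower at 4 h and 8 h, with changes of -0.69 and -0.75 (adjusted p = 0.0219 and 0.0406), and Abcg3 at 4 h, with -0.68 (adjusted p = 0.0404). The level of Abcg3 was low, 5.645 at 0 h and 4.97 at 4 h. Of 20 genes of the Slc35 subfamilies b to g, which include the symbols that the selection by the letter a left out, Slc35c1, the Golgi transporter of GDP-fucose, was called lower at 4 h, with a change of -0.72 ± 0.17 (adjusted p = 0.0389).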
